A study of Mus musculus with 2 samples.

Results

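The genes of plasminogen activation and of the start of blood clotting were compared between untreated AML12 cells and AML12 cells made senescent with hydrogen peroxide. These cells are a non-transformed line of mouse hepatocytes. The set is a list of names, whose rule uses no measured value, and holds 9 genes of the 35275 in the count table: Plau, Plat, Plg, Plaur, Serpine2, F3, Tfpi, F2r and F2rl1. All 9 were found in the table by their Ensembl identifiers and the symbols of GENCODE M21.

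Both groups were AML12 cells, labelled as liver cells of the strain CD-1 from a male donor of 3 months, and they differed by the treatment. Control cells were left untreated. Senescent cells were exposed to H2O2 on 6 days. Each exposure lasted 1 h in serum-free medium, with a dose of 1 mM to begin with and of 0.75 mM from the next day. It was followed by 23 h of recovery in complete medium with serum, insulin and dexamethasone. The sources used here do not state whether control cells went through the same daily changes of medium. AML12 is a cultured line made from hepatocytes of a mouse that carried a human TGF-alpha transgene, so it stands for hepatocytes in culture and not for the mixed cells of a liver. RNA of 3 samples per condition was pooled into 1 library, so that each comparison below sets 1 library against 1 library and no p-value could be computed.

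Plasminogen is a zymogen made by the liver, and it becomes the broad protease plasmin when urokinase or tissue-type plasminogen activator cuts it. Urokinase works mostly at the cell surface, where it is held by its own receptor, and serpins such as protease nexin-1 trap the activators and thrombin in inactive complexes. Tissue factor starts clotting by binding factor VII, tissue factor pathway inhibitor stops that complex, and the proteases of the cascade signal to cells through protease-activated receptors, which are switched on by a cut in their outer end.

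In the senescent library 2 receptor genes were higher, the serpin gene Serpine2 was lower but not past the threshold, and the genes of the activators and of tissue factor differed less. Plaur, the urokinase receptor, was 3.87-fold higher, and F2rl1, which encodes protease-activated receptor 2, was 3.05-fold higher. Plg, the plasminogen gene, had reads in the senescent library and none in the control. Serpine2, which encodes protease nexin-1, was 1.94-fold lower. F2r, the gene of the thrombin receptor PAR1, had 0 reads in both libraries.

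The control library held 28021941 counted reads and the senescent library 25738075. Counts were scaled by the TMM method, and log2 ratios (senescent over control) were formed with a prior count of 1. The 95% interval of a ratio comes from the senescent share of the reads (Clopper-Pearson) and covers counting error only, since no library was replicated. No molecular identifiers tell PCR copies apart, so it may be too narrow even for counting error. To count as higher or lower, a gene needed a log2 ratio beyond 1.5 in size, an interval without 0 and a sum of at least 10 reads. Of all 14383 genes with at least 10 reads, 2.71% counted as higher and 5.6% as lower. Of the 9 genes, 8 had at least 10 reads, 3 counted as higher (Plaur, F2rl1 and Plg) and 0 as lower. Plg reached 10 reads through the senescent library alone. With a threshold of 1, 3 of the genes counted as higher and 0 as lower, against 5.09% and 9.98% of all genes. With a threshold of 2, 1 (Plg) and 0 counted, against 1.52% and 3.2%. With intervals that allow for a biological coefficient of variation of 0.4, these were 2 (Plaur and Plg) and 0, against 1.69% and 3.97%. Among the 11291 genes with at least 100 reads, these were 2 (Plaur and F2rl1) and 0, against 1.25% and 3.5%. The median log2 ratio of the 8 genes was 0.29, against -0.02 over all genes tested. Total-count scaling moved the median of all genes by -0.11, so ratios below are relative to the TMM scale.

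The 250 bases before a RefSeq start site are printed for 4 genes that stand for the patterns seen: Plaur, which was higher, Serpine2, which had the lowest log2 ratio of the set, F3, which was nearly level, and F2r, which had no reads. They are RefSeq promoters of the build GRCm38.p6, which matches the mm10 build named in the submitters' processing notes, and are written 5′ to 3′ on the strand of the gene. Capitals mark matches to TGANTCA, the core of an AP-1 site, and to GGGCGG, the core of an Sp1 site, each searched on both strands, with overlapping matches kept. The windows are chr7:24462233-24462482 on the plus strand for Plaur, chr1:79858666-79858915 on the minus strand for Serpine2, chr3:121723287-121723536 on the plus strand for F3 and chr13:95618467-95618716 on the minus strand for F2r. The Serpine2 start lies 30 bases from the nearest GENCODE start and inside the gene, which has 6 transcripts and reaches upstream to 79861180. That of F2r lies 21 bases from the nearest GENCODE start, and its window overlaps the annotated gene. Which starts these cells used was not tested.
Plaur: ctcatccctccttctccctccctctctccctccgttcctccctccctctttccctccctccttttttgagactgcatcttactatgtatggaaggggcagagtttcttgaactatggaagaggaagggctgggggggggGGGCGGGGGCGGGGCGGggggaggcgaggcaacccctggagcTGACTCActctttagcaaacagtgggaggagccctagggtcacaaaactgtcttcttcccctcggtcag
Serpine2: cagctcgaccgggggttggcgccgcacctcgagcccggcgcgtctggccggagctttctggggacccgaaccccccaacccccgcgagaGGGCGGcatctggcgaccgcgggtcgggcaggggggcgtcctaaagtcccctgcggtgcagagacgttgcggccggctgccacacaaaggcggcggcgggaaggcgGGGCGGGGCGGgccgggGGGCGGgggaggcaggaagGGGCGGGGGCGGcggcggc
F3: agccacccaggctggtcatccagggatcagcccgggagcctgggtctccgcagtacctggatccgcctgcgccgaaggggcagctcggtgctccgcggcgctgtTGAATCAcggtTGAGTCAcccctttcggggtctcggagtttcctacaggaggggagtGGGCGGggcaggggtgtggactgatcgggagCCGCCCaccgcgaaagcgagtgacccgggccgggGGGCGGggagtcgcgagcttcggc
F2r: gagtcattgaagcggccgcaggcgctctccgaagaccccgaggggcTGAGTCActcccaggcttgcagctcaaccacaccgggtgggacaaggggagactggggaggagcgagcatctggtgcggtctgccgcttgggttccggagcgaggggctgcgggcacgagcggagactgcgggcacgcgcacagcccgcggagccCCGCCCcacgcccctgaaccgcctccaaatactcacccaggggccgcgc

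Counted back from the start, with -1 as the base just before it, Plaur held TGACTCA from -69 to -63, and 3 GGGCGG matches lay between -111 and -95. F3 held 2 such sites, TGAATCA from -146 to -140 and TGAGTCA from -135 to -129. F2r held TGAGTCA from -204 to -198. Serpine2 held no TGANTCA and 6 GGGCGG, of which 5 lay within the last 55 bases, in a window of 78.8% G and C. Over all 32851 promoter windows of the same length, 6.75% held TGANTCA and 32.7% held GGGCGG, and the median G and C content was 52.4%. The letters GGGNNTTCC, searched as 1 form of an NF-κB site, were found in 4.98% of windows and in none of the windows of these genes. Other forms of that site were not searched, so this does not show that the windows lack one. The AP-1 letters were present upstream of a gene that was higher (Plaur), a gene that was nearly level (F3) and a gene without reads (F2r). Plg and F2rl1, also counted as higher, had no promoter to search, and a role of these sites was not tested. Tfpi had 2 start sites in the table, both without TGANTCA and with 1 GGGCGG each. Plau, Plat, Plg and F2rl1 are named only.

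**Figure D1:**
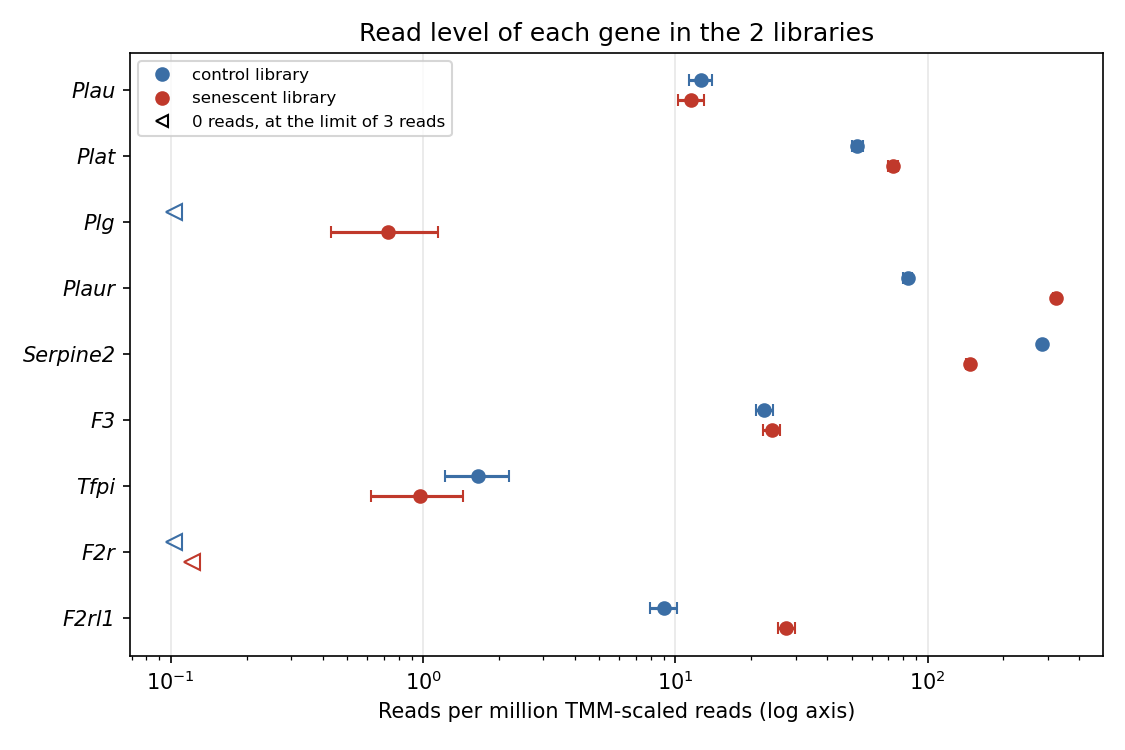
Read level of each gene in CPM (TMM-scaled, log axis) in the control and senescent libraries. Points are 1 library each with exact 95% Poisson intervals for counting error, and open triangles mark 0 reads, drawn at the limit of 3 reads. Plaur and F2rl1 lay higher and Serpine2 lower in the senescent library, while the intervals of Plau and F3 overlapped.

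The activators differed little. Plau, the urokinase gene (ENSMUSG00000021822, chromosome 14 from 20836660 to 20843385), had 367 control reads and 286 senescent reads. Scaled to CPM, the reads of a gene per 1000000 TMM-scaled reads of its library, these were 12.6 (11.36 to 13.98) and 11.5 (10.2 to 12.9), and the intervals overlapped. Its log2 ratio was -0.13 with an interval of -0.36 to 0.10, so no difference could be detected at this depth. With total-count scaling the log2 ratio of Plau was -0.24 (-0.47 to -0.01). Plat, the gene of tissue-type plasminogen activator (ENSMUSG00000031538, chromosome 8 from 22757727 to 22782844), had 1529 and 1816 reads. Its level was 52.6 (49.98 to 55.28) CPM for the control against 73.2 (69.9 to 76.7) for the senescent library, with no overlap of the counting intervals. The log2 ratio of Plat was 0.48 (0.38 to 0.58), a 1.39-fold difference that did not reach the threshold. An interval of any size above 0 was found in 34% of all genes tested and below 0 in 34.6%, so that an interval without 0 was common in these libraries.

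Plg, which encodes plasminogen itself (ENSMUSG00000059481, chromosome 17 from 12378608 to 12419385), had 0 control reads and 18 senescent reads. Against a floor of 3 reads for the count of 0, Plg was at least 7.04-fold higher in the senescent library. That bound takes the 18 reads without error, and with their counting error the log2 ratio of Plg had a lower limit of 2.37. Its level there was only 0.726 (0.430 to 1.15) CPM. Of all genes tested, 93.2% had more reads than Plg. The exons of Plg overlap those of Slc22a3, a transporter gene on the opposite strand, which had 0 control reads and 1 senescent read.

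The urokinase receptor gene Plaur (ENSMUSG00000046223, chromosome 7 from 24462484 to 24475968) had 2425 control reads and 8004 senescent reads. This corresponded to 83.4 (80.1 to 86.8) CPM in the control and 323 (316 to 330) in the senescent library. The log2 ratio of Plaur was 1.95 (1.89 to 2.02), and 1.61% of the genes tested had a higher one. Plaur encodes a surface protein held by a lipid anchor that binds urokinase and, beside integrins, vitronectin. While the receptor was higher, the RNA of its ligand Plau was not, and the read ratio of Plau to Plaur went from 0.151 to 0.0357.

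Serpine2 (ENSMUSG00000026249, chromosome 1 from 79794197 to 79861180) encodes protease nexin-1, an inhibitor of thrombin, urokinase and tissue-type plasminogen activator that binds to cell-surface glycosaminoglycans. It had 8289 control reads and 3646 senescent reads, or 285 (279 to 291) and 147 (142 to 152) CPM. The log2 ratio of Serpine2 was -0.96 (-1.01 to -0.90). It was -1.06 with total-count scaling. On the TMM scale, where Serpine2 did not pass -1, a log2 ratio below -1 was counted in 9.98% of the genes tested. The ratio of Serpine2 was exceeded by 88.3% of the genes tested. Serpine2 took 61.1% (Wilson interval 60.2% to 61.9%) of the 13576 reads of the 9 genes in the control library and 24.2% (23.5% to 24.9%) of 15075 reads in the senescent library. Plaur took 17.9% (17.2% to 18.5%) and 53.1% (52.3% to 53.9%), and so replaced Serpine2 as the gene with the most reads of the set.

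Tissue factor and its inhibitor were expressed at unlike levels. F3, the tissue factor gene (ENSMUSG00000028128, chromosome 3 from 121723537 to 121735048), had 656 control and 597 senescent reads, which gave 22.6 (20.9 to 24.4) and 24.1 (22.2 to 26.1) CPM. Its log2 ratio of 0.09 had an interval of -0.07 to 0.26, and no difference was detectable. The sign of the F3 ratio turned with total-count scaling, to -0.01 (-0.18 to 0.15). Tfpi, the gene of tissue factor pathway inhibitor (ENSMUSG00000027082, chromosome 2 from 84432855 to 84476775), had 48 and 24 reads. Its levels of 1.65 (1.22 to 2.19) and 0.968 (0.620 to 1.44) CPM overlapped in their intervals. The log2 ratio of Tfpi was -0.75 (-1.54 to -0.03), and its interval reached 0.07 once a biological coefficient of variation of 0.1 was assumed.

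The protease-activated receptors were split. F2r, which encodes PAR1, the main thrombin receptor (ENSMUSG00000048376, chromosome 13 from 95601803 to 95618487), had 0 reads in both libraries. The floor of 3 reads corresponds to 0.103 (control) and 0.121 (senescent) CPM, and the exact Poisson upper limits of these zeros were 0.127 and 0.149 CPM. F2rl1, which encodes PAR2, a receptor cut by trypsin, by factor VII bound to tissue factor and by membrane serine proteases (ENSMUSG00000021678, chromosome 13 from 95511732 to 95525227), had 262 control and 684 senescent reads. Its level was 9.01 (7.95 to 10.2) CPM in control cells and 27.6 (25.6 to 29.7) in senescent cells. The log2 ratio of F2rl1 was 1.61 (1.41 to 1.83), and 2.37% of the genes tested had a higher one. It lay close to the threshold with total-count scaling, at 1.503, and its interval reached 0 when a biological coefficient of variation of 0.4 was assumed.

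**Figure D2:**
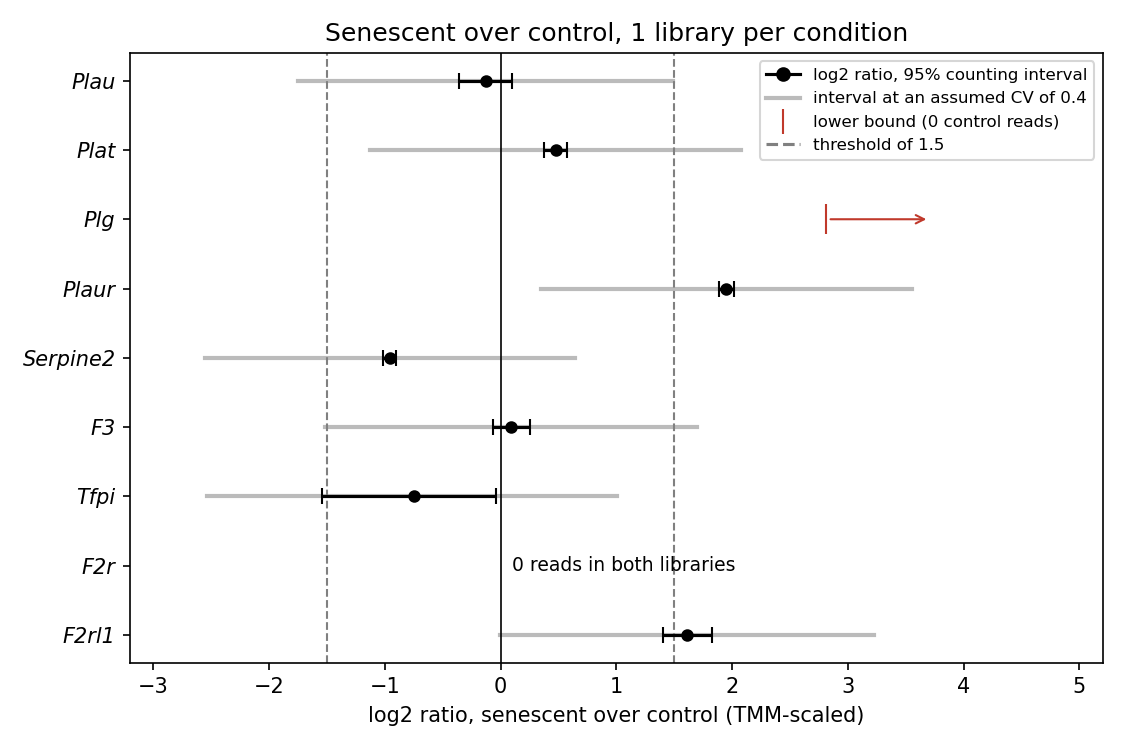
Log2 ratio of senescent over control for each gene after TMM scaling, with 95% counting intervals in black. Grey lines are the intervals at an assumed CV, the biological coefficient of variation, of 0.4. Dashed lines mark the threshold of 1.5, and the arrow of Plg starts at the log2 of its lower bound of 7.04-fold. Plaur, at 1.95, and F2rl1, at 1.61, lay past the threshold, and the widened interval of Plaur stayed above 0.

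To compare levels between genes, reads were divided by the length of all annotated exons of a gene (RPKM, the CPM per kilobase). In the control library Serpine2 (34.4) lay just above Plaur (31.9), with intervals that did not overlap. F3 (8.93) and Plat (8.42) followed and their intervals overlapped. Then came Plau (5.33), F2rl1 (3.29) and Tfpi (0.302). In the senescent library Plaur led with 123, followed by Serpine2 (17.7) and Plat (11.7). F2rl1 (10.1) and F3 (9.53) overlapped in their intervals, and Plau (4.87) lay below both. Plg (0.196) and Tfpi (0.177) were the lowest genes with reads, and their intervals overlapped. F2rl1 thus moved from below Plau in the control to above it in the senescent library. With the length of the longest coding transcript, an alternative chosen after the data were seen, Serpine2 and Plaur kept the leading places. At that length Serpine2 led in the control by a wider gap, with 129 against 55.4, and Plaur led in the senescent library. Plat then passed F3 in the control library and F3 passed F2rl1 in the senescent library.

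Ratios between the reads of 2 genes in a library do not depend on the scaling. They were formed for 6 pairs, each a protease or initiator with an inhibitor or receptor, or 2 like proteins. The ratio of Plat to Serpine2 reads was 0.184 in control and 0.498 in senescent cells, a 2.70-fold increase (exact conditional interval 2.49 to 2.92). That of Plau to Serpine2 was 0.0443 and 0.0784, a 1.77-fold increase, with a log2 change of 0.83 (0.59 to 1.06). Both activators therefore had more reads per read of Serpine2 in the senescent library, while the interval of the Plau log2 ratio alone held 0 on the TMM scale. With an assumed biological coefficient of variation of 0.4, the intervals of both log2 changes included 0. They ran from -1.45 to 3.10 for Plau to Serpine2 and from -0.83 to 3.70 for Plat to Serpine2. Within the activators, Plau to Plat went from 0.240 to 0.157, a log2 change of -0.61 (-0.86 to -0.36). The ratio of F3 to Tfpi was 13.7 before and 24.9 after the treatment, and its 1.82-fold increase had a wide interval of 1.08 to 3.15. The log2 change of Plau to Plaur was -2.08 (-2.32 to -1.85). F2rl1 to F2r gave no ratio because F2r had no reads.

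**Figure D3:**
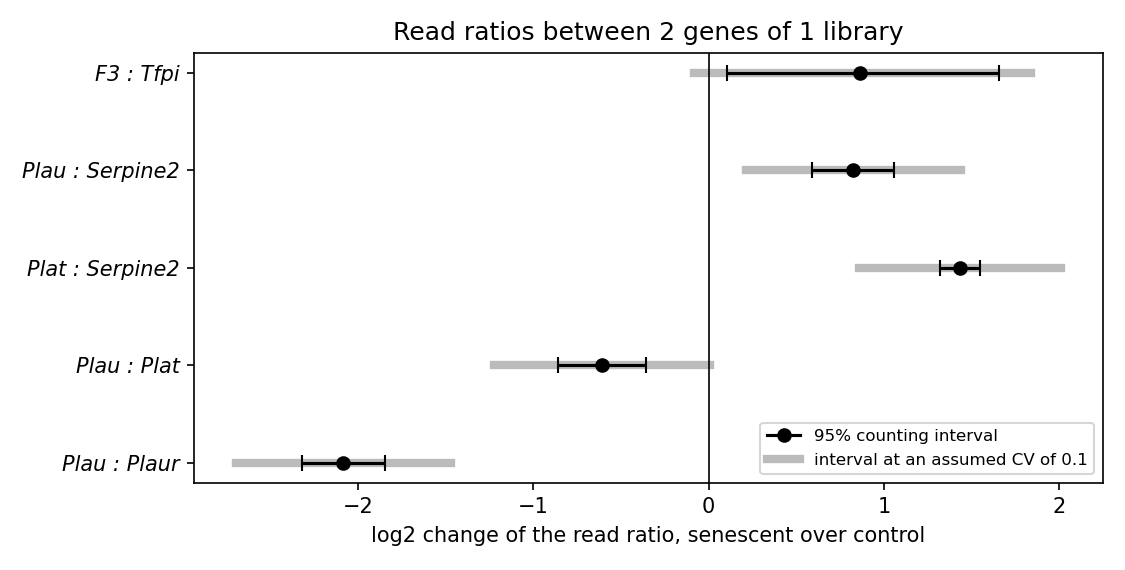
Log2 change, senescent over control, of the read ratio between 2 genes of the same library, with exact 95% counting intervals in black and the intervals at an assumed CV (biological coefficient of variation) of 0.1 in grey. Ratios of activators to Serpine2 lay above 0 and the ratio of Plau to Plaur lay at -2.08, while the grey intervals of F3 to Tfpi and of Plau to Plat included 0. At an assumed CV of 0.4, not drawn here, the intervals of all these pairs included 0.

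Genes that act with the set were taken from 7 lists drawn from general knowledge. They are described by counts, with no test, and the background shares of 2.71% higher and 5.6% lower apply. Of 11 genes of plasminogen binding at the cell surface and of partners of the urokinase receptor, 0 counted as higher and 1 as lower, with a median log2 ratio of 0.02. That gene was Vtn, the matrix and plasma protein vitronectin, a ligand of the urokinase receptor, with 95 control and 10 senescent reads and a log2 ratio of -2.91 (-4.12 to -2.08). Annexin A2, which presents plasminogen and tissue-type plasminogen activator at the surface, had 40482 and 67065 reads of Anxa2, whose log2 ratio of 0.96 (0.94 to 0.98) lay below the threshold. Eno1, an enolase that also binds plasminogen, had a log2 ratio of -0.67 (-0.70 to -0.64). Itgb1, the integrin beta-1 gene, had one of 0.60 (0.57 to 0.63).

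Among 10 genes of the further protease-activated receptors, thrombomodulin, the protein C receptor and the proteins that carry their signal, 0 counted as higher and 0 as lower of 8 with at least 10 reads, and the median log2 ratio was 0.25. The G protein genes Gnaq, Gna11 and Gna13, through which these receptors signal, had log2 ratios of 0.33, 0.63 and 0.60. The genes of the beta-arrestins had lower ratios, with 3397 and 1340 reads of Arrb1 (-1.11, interval -1.20 to -1.02) and 1000 and 317 reads of Arrb2 (-1.43, interval -1.61 to -1.24). In this list 1 gene counted as lower with total-count scaling and 2 with a threshold of 1. Of 7 genes of surface proteases, among them known activators of PAR2, 1 counted as higher and 1 as lower, with a median log2 ratio of 0.32. Prss22, a tryptase, had 10 and 32 reads and a log2 ratio of 1.80 (0.85 to 3.10), which fell to 1.48 with a prior count of 5. Tmprss6, the matriptase-2 gene known for its control of hepcidin, had 72 and 11 reads and a log2 ratio of -2.39 (-3.55 to -1.56). St14, the gene of the PAR2 activator matriptase, had 117 and 169 reads and a log2 ratio of 0.75 (0.41 to 1.11), below the threshold. The log2 ratios of Tmprss2 and Prss8, genes of further membrane-bound serine proteases, were 0.32 and -0.68, both below the threshold in size.

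Of 13 genes of other inhibitors, 8 had at least 10 reads, 1 counted as higher and 0 as lower, and their median log2 ratio was -0.21. The gene counted was Serping1, the C1 inhibitor, with 1 control and 12 senescent reads and a log2 ratio of 2.87 (1.06 to 9.23). The most abundant genes of this list moved in different ways by less than the threshold: Serpinb6a, an intracellular serpin, had a log2 ratio of 0.94 (0.90 to 0.97), Spint2, an inhibitor of membrane serine proteases, -0.33 (-0.38 to -0.27), and Serpinb9, the granzyme B inhibitor, -0.81 (-0.89 to -0.72). Of the 6 genes analysed among plasminogen-like and contact proteins, 3 had at least 10 reads, 0 counted as higher or lower, and the median log2 ratio was -0.27. The log2 ratio of Habp2, a plasma protease, was 0.03 and was -0.07 with total-count scaling, and those of Hgfac and Mst1 were -0.27 and -0.46. Hgf, which encodes a growth factor related to plasminogen, had 0 reads in both libraries.

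Of 17 liver coagulation genes analysed, 12 had at least 10 reads, 3 counted as higher and 1 as lower, and their median log2 ratio was -0.07. The 3 that counted as higher had few reads: F5, the cofactor factor V, with 3 control and 68 senescent reads (log2 ratio 4.31, interval 3.12 to 7.05), Serpinc1, antithrombin, with 3 and 19 (2.52, interval 1.13 to 5.29), and Fga, a fibrinogen chain, with 8 and 34 (2.17, interval 1.18 to 3.64). Serpind1, heparin cofactor II, a thrombin inhibitor, counted as lower, with 583 and 160 reads and a log2 ratio of -1.63 (-1.90 to -1.38). Proc, the protein C zymogen, had a log2 ratio of -0.55 (-0.66 to -0.44), while Lman1 and Mcfd2, which carry factor V out of the endoplasmic reticulum, had -0.18 and 0.14. F7, the partner of tissue factor, had 0 control reads and 1 senescent read, so no fold was computed. F7, Hgf, Arrb1 and Arrb2 fall outside the rule for naming genes and were chosen after their values were seen.

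Of 10 genes of matrix proteases and their inhibitors, 6 had at least 10 reads, 2 counted as higher and 1 as lower, and their median log2 ratio was 0.38. Mmp13, a collagenase, had 135 and 981 reads and a log2 ratio of 3.08 (2.83 to 3.36), and Mmp10, stromelysin-2, with 0 and 12 reads, was at least 4.69-fold higher against the floor of 3 reads, a bound without the counting error of the 12 reads, with which the log2 ratio had a lower limit of 1.70. Adamts1, a protease of aggrecan and versican, counted as lower, with 4108 and 736 reads and a log2 ratio of -2.25 (-2.37 to -2.14). Mmp14, the membrane-type collagenase, and Timp2, which inhibits matrix proteases, were among the most abundant of the list, with log2 ratios of -0.11 and 0.48. Over the 7 lists together, 7 genes counted as higher and 4 as lower. Of the 7, 5 (F5, Fga, Mmp10, Serpinc1 and Serping1) had under 10 control reads and reached 10 reads only through the senescent library. With at least 100 reads required, an alternative added after the data were seen, 1 gene, Mmp13, counted as higher and 3 as lower. The shares over all genes at that minimum were 1.25% and 3.5%.

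**Figure D4:**
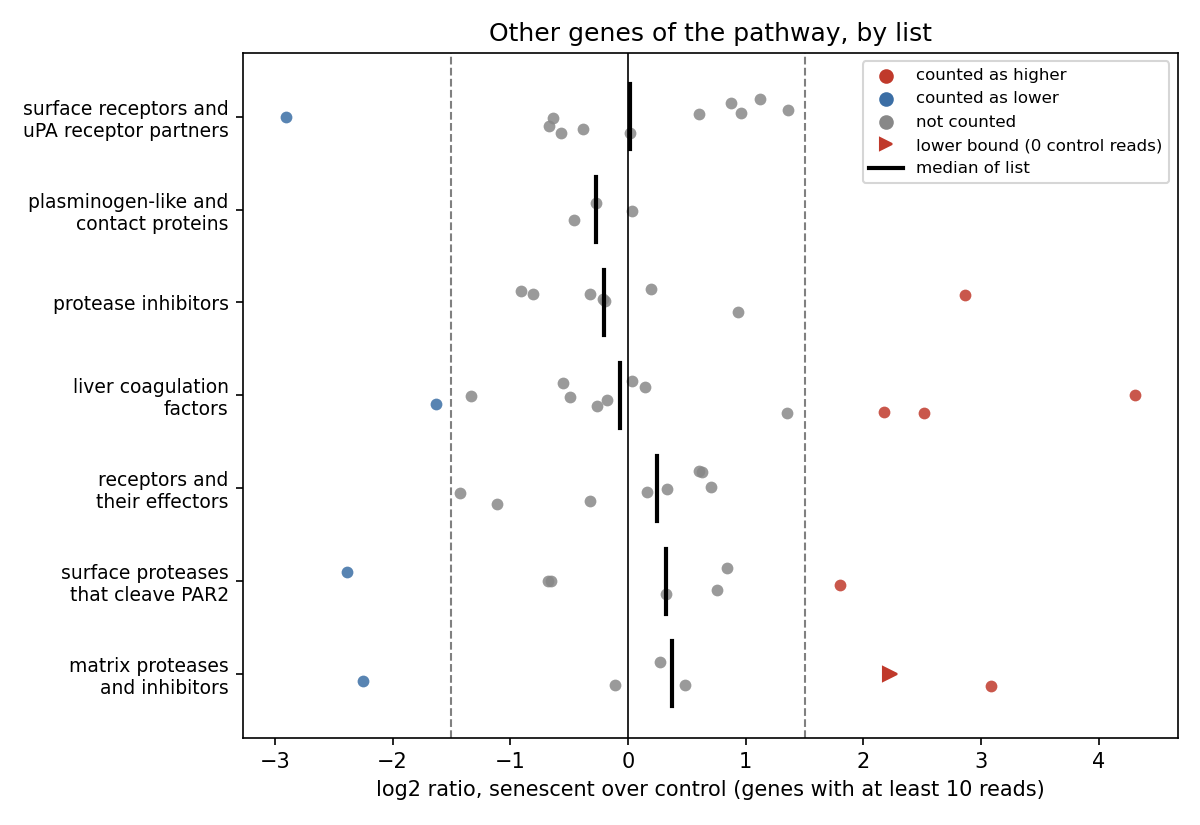
Log2 ratio of senescent over control for each gene with at least 10 reads in 7 lists of related genes, with the list medians as black bars and the threshold of 1.5 as dashed lines. Vertical scatter within a list has no meaning, and the triangle is Mmp10 at the log2 of its lower bound. Most genes lay between the dashed lines, with 7 beyond the upper and 4 beyond the lower one.

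The label of the cells was checked against marker genes. The 8 hepatocyte markers summed to 7716 and 9743 CPM, and 2 of them, Alb and Apoa1, counted as lower. The keratins Krt8 and Krt18 took 5499 and 8295 CPM of these sums, and the other 6 markers summed to 2217 and 1449 CPM. Krt8, an epithelial keratin, had 119403 control and 144783 senescent reads, and the hepatocyte factor Hnf4a had 8187 and 7705. Alb, the albumin gene, had 32076 and 2917 reads, and Serpina6 had 0 and 1. Several of the 9 genes are known from endothelium, platelets, macrophages and fibroblasts. The summed level of 6 endothelial markers was 0.447 CPM for control and 1.41 for senescent cells, with Tie1 at 0 in both. Of these, Vwf alone had at least 10 reads (8 and 24) and counted as higher. The 6 macrophage markers summed to 2.61 and 6.29, with Adgre1, Clec4f and Marco at 0 in both libraries, and 2 of them, Ptprc and Csf1r, counted as higher. The 5 platelet markers summed to 1.75 and 2.02, with Gp9 at 0 in both, and Ppbp (16 and 1 reads) counted as lower. The 6 fibroblast markers summed to 0.928 and 0.323, with Col1a2 and Lum at 0 in both, and Col1a1 (21 and 1 reads) counted as lower. The part of such cells in the ratios above was not tested. In these bulk libraries, a change in the number of cells that express a gene and a change in its RNA per cell cannot be told apart.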

How the data were processed

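RNAseq was measured in control and in H2O2-treated (senescent) AML12 cells, with 1 library per condition made from RNA of 3 pooled samples. Poly(A) RNA was selected and copied with random primers. The authors deposited un-normalized counts of reads per Ensembl gene. The submitters' processing notes name CASAVA, STAR, DESeq2, edgeR and the build mm10, with no roles, while the counting tool, the annotation and the use of strand are not given in the sources used here, so reads of overlapping, antisense or near-identical genes may be shared. Columns were matched to samples by the initials of the titles Young and Old. Symbols and positions came from GENCODE M21 (GRCm38), which gave a symbol for 34490 of 35275 genes (97.8%), and promoters from RefSeq, which had 5 of the 9 genes.

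Counts were scaled by TMM in edgeR 4.0.16 (R 4.3.3), where the factors were 1.04 (control) and 0.964 (senescent), and for alternatives by DESeq2 1.42.0 size factors, upper quartiles and total counts. Ratios and intervals were computed with Python 3.11.15, numpy 2.4.6, pandas 2.3.3 and scipy 1.17.1, and plots with matplotlib 3.10.9. The procedure was tested on simulated data only with changes well past the threshold, so this run does not show how often changes near it are found. With 1 library per condition no test was possible, and the threshold of 1.5 on the log2 scale is that of the study's methods. Genes were named if they belonged to the set of 9, if they were among the 3 genes with the most reads of a list, or if they were among up to 4 highest and 4 lowest counted genes of a list. The set, the lists and the pairs were chosen with earlier results of these data known. Some genes of these pathways are not reported here.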

Additional observations from a re-analysis of the deposited data

How the results depend on the processing

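No paired analysis was possible because each condition had 1 library, and for the same reason no library could be left out. The log2 ratios of 7 of the 8 genes with reads kept their direction under every scaling and prior count tried, and that of F3, whose interval holds 0, was -0.01 with total-count scaling. The number of the 9 genes counted as higher was 3 with each scaling and prior count, with a minimum of 1 read, with a threshold of 1 and with a coefficient of variation of 0.1. It was 2 with at least 100 reads required, which took out Plg and left 1.25% of 11291 genes as higher, and 2 with an assumed biological coefficient of variation of 0.4, which took out F2rl1. It was 1 (Plg) with a threshold of 2, against a share of 1.52% of all genes. The number counted as lower was 0 throughout. Over the 14383 genes with at least 10 reads, 390 counted as higher and 805 as lower. With total-count scaling these were 332 and 905, with DESeq2 size factors 387 and 805, and with upper quartiles 360 and 841. A minimum of 1 read, which tests more genes, gave 494 and 857. A prior count of 0.25 gave 403 and 835, and a coefficient of variation of 0.1 gave 383 and 796. With at least 100 reads required these were 141 and 395, with a threshold of 1 they were 732 and 1435, and with a threshold of 2 they were 219 and 460. A prior count of 5 gave 259 higher and 602 lower genes, and a coefficient of variation of 0.4 gave 243 and 571. Over the 7 lists, 1 gene counted as higher and 3 as lower with at least 100 reads, against 1.25% and 3.5% of all genes. With a threshold of 1 these were 10 and 7, against 5.09% and 9.98% of all genes. The changes of read ratio keep their value when intervals are widened. With a coefficient of variation of 0.1 the interval of F3 to Tfpi (0.86) ran from -0.08 to 1.84 and that of Plau to Plat (-0.61) from -1.23 to 0.01. With 0.4 all of these included 0, also those of Plau to Serpine2 (0.83), Plat to Serpine2 (1.43) and Plau to Plaur (-2.08). Low read numbers limit Plg, Tfpi and the coagulation genes with few reads, such as F5, Serpinc1 and Fga. The absence of replicate libraries limits every comparison.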
